A study of Mus musculus with 6 samples.

Results

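The genes described here encode calcineurin, the calmodulins Calm2 and Calm3, and proteins that hold calcineurin in check. They are 9 of the 23505 gene rows of the count table, matched by name: Ppp3ca, Ppp3cb, Ppp3cc, Ppp3r1, Rcan1, Rcan3, Cabin1, Calm2 and Calm3. All 9 were found and all 9 had enough counts to be tested. The RNA came from liver CD4+ T cells of wild type mice that had received concanavalin A (ConA), a lectin that stimulates T cells and brings on hepatitis. One group (ConA, 3 libraries) had PBS by gavage and the other (ConA+SIM, 3 libraries) had simvastatin, a statin, at 30 mg/kg. Gavage was daily over 5 days before ConA, 1 h before it and again 24 h after it, so every library is from ConA-injected mice and none is from an uninjected mouse. Cells were sorted as CD3+ CD4+ and negative for NK1.1 and CD8; the sources used here do not give strain, age, sex or ConA dose, or say whether animals were pooled. The series design asks what simvastatin does to CD4+ T cells in this liver injury, and its title names the calcium and NFATC3 pathway, in which calcineurin is the central enzyme.

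Calcineurin is a phosphatase that calcium switches on. When a T cell is stimulated, calcium binds calmodulin and the calcineurin regulatory subunit, and calmodulin then releases the catalytic subunit from self-inhibition. The active enzyme strips phosphates from NFAT transcription factors, which move into the nucleus and drive cytokine genes. The drugs ciclosporin and tacrolimus block T cells by blocking this enzyme.

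Total counts ran from 17549429 to 25031862 per library. The 8 CD4 T cell markers were present in every library. Cd4 stood at 441 to 766 CPM (reads of a gene relative to the TMM-scaled library total). Of the 2 CD8 T cell markers, Cd8a was at 15.9 CPM or less. Cd8b1 stood, in replicate order, at 17.2, 33.1 and 4.64 CPM in ConA and at 21.8, 54.1 and 42.2 CPM in ConA+SIM. The libraries held RNA of other cells as well. The summed level of 15 macrophage and monocyte markers ran from 1506.4 to 3098.2 CPM in ConA and from 1019.3 to 2528.3 CPM in ConA+SIM, and that of 12 sinusoidal endothelial markers from 418 to 2404.5 and from 441 to 851 CPM. The groups overlapped in these sums, and of 8 marker lists 2 had groups that did not overlap. Single genes were lower in ConA+SIM for 8 of 12 tested macrophage and monocyte markers and higher for 4 (median log2 fold change -0.83). The 3 with the highest mean levels were Lyz2, at -0.57, and Ccr2 and Ly6c2, at 0.51 and 0.99. All 12 endothelial markers had lower values (median -0.84), and 0 genes of either list passed. The summed level of 9 erythroid and platelet markers (Ppbp at 0 in all libraries) ran from 46.3 to 115 CPM in ConA and from 229 to 343 CPM in ConA+SIM. Its hemoglobin gene Hbb-bs rose, by 2.07 on the log2 scale (adjusted p = 0.0485, edgeR). After correction for transcript length Hbb-bs was at 1.335 and 0 genes of that list passed. The summed level of 12 NK cell and ILC1 markers (2 at 0 in all libraries, Ncr1 and Klra8) ran from 401 to 569 CPM and from 744.5 to 1036.3 CPM. Of 9 tested genes in that list, 8 had higher values and 1, Klre1, a lower value. In replicate 2 the sum was 526 CPM in ConA and 744.5 CPM in ConA+SIM. Gzma gave 28.6 and 299 CPM of these, and the separation of the sum depends on that gene. In bulk RNA, fewer cells of a type and less RNA per cell cannot be told apart. ConA+SIM replicate 2 stood apart, where 18.4% of tested genes had no read (2.76% to 9.98% elsewhere).

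In the comparison of ConA+SIM with ConA, 0 of the 9 genes passed the edgeR quasi-likelihood test at an adjusted p under 0.05, where 0.542% of the 10509 tested genes did. At an unadjusted p under 0.05 there was 1 member, Calm2, which was higher (5.31% of tested genes were higher at that p). Calm2 was also the 1 member called higher by DESeq2 (3.39% of tested genes were called higher) and by limma-voom (1.03%), whereas limma-voom with sample quality weights called 0 members (1.08% of genes in either direction). Values were higher in ConA+SIM for 3 members and lower for 6, and the median log2 fold change of the 9 was -0.16, beside -0.041 over all tested genes. In 1 member, Calm2, all 3 ConA+SIM libraries lay above all 3 ConA libraries (9.18% of tested genes), and in 1 member, Cabin1, all lay below (8.57%).

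**Figure D1:**
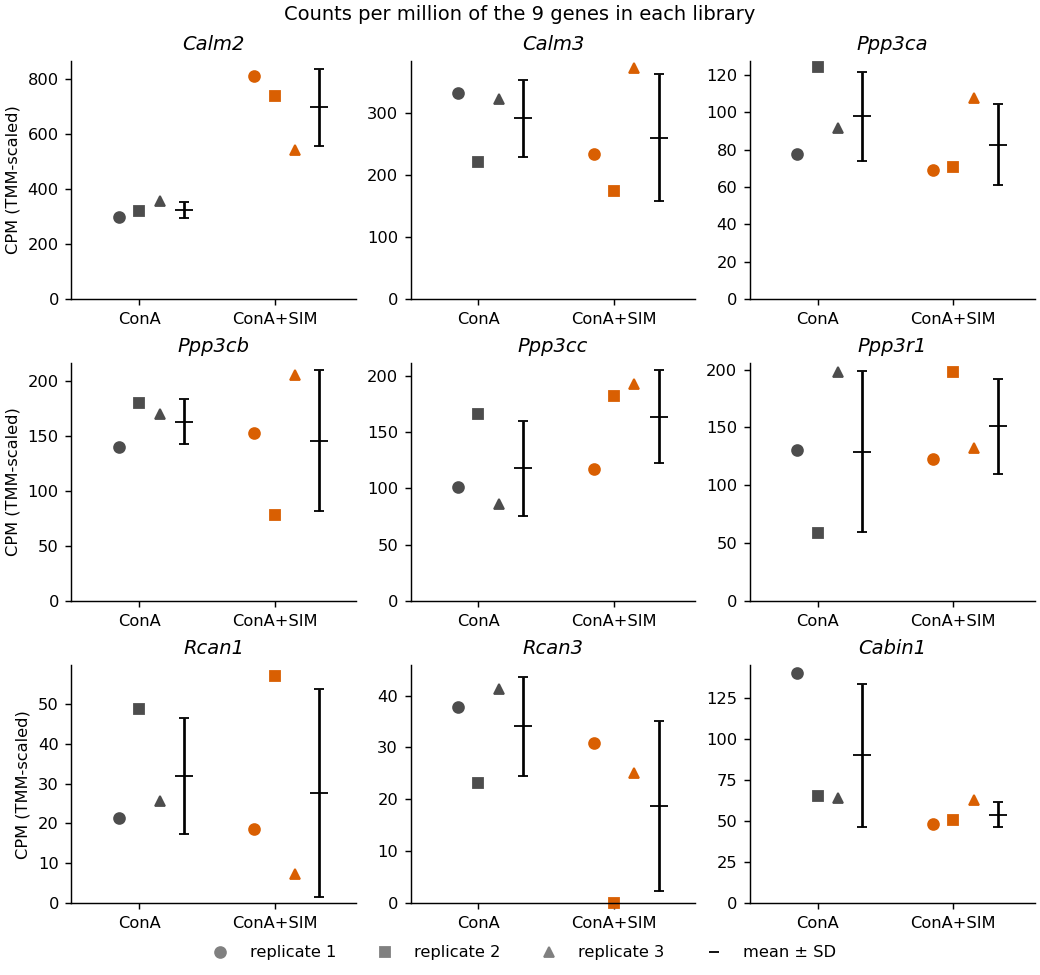
Level of each of the 9 genes in the 6 libraries, in TMM-scaled CPM on linear axes that start at 0. Points are libraries, shaped by replicate number, and the bar beside each group is its mean ± SD (n = 3). Calm2 is the member with all ConA+SIM libraries above ConA, Cabin1 the one with all below.

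Calm2 and Calm3 encode calmodulin, the calcium sensor that activates calcineurin and the calmodulin-dependent kinases. Separate genes on different chromosomes encode an identical protein, so they differ in transcript level and regulation and not in product. Calm2 (chromosome 17, 87433412 to 87446935, minus strand, GRCm38) stood at 296.7, 318.5 and 355.4 CPM in the ConA libraries (here and below in the order of their replicate numbers). It stood at 811.9, 740.1 and 540.1 CPM in the ConA+SIM libraries. The lowest ConA+SIM library was thus well above the highest ConA library. Group means were 324 ± 29.7 and 697 ± 141 CPM (SD, n = 3), a log2 fold change of 1.11 ± 0.21 (SE) with a 95% interval from 0.63 to 1.59. Its adjusted p was 0.0743 in the edgeR test, short of the threshold, 4.71e-06 in DESeq2 and 0.0192 in limma-voom. The summed erythroid and platelet markers were likewise higher in every ConA+SIM library than in any ConA library. So were the summed NK cell and ILC1 markers, where the separation depends on Gzma. The summed CD4 T cell markers overlapped between groups, and 5 of the 8 had higher and 3 lower values. In 3 of them, Cd3d (0.77), Cd3g (0.64) and Cd247 (1.14), all ConA+SIM libraries lay above ConA (9.18% of tested genes). None of the 8 passed. The part of these markers in the Calm2 level was not tested.

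Calm3 (chromosome 7, 16915379 to 16924114, minus strand) showed no such separation. It stood at 331, 219.9 and 322 CPM in ConA and at 233.4, 173.5 and 372.4 CPM in ConA+SIM. The highest and the lowest library were both ConA+SIM libraries, and the groups overlapped. Its log2 fold change was -0.16 ± 0.32, with a 95% interval from -0.87 to 0.55, which does not reach the 1.11 of Calm2. The difference between the fold changes of these genes was not tested.

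Within a library, Calm2 was 1.703, 2.754 and 2.098 times the level of Calm3 in the ConA libraries, in CPM per kb of transcript. The ratio was 6.61, 8.11 and 2.756 in the ConA+SIM libraries. Replicates 1 and 2 of ConA+SIM were far above every ConA library, but ConA+SIM replicate 3 exceeded ConA replicate 2 by almost nothing. The ratio does not depend on the scaling of libraries, since both genes are in the same library.

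Transcript length and base content moved with the difference. The Calm2 transcript used for length was 1205 nt long with a GC content of 42.7%, whereas that of Calm3 was 2290 nt with 58.3%. Short transcripts had higher values in ConA+SIM across the table: the median log2 fold change was 0.63 over 523 tested genes under 1 kb, 0.20 over 2077 genes of 1 to 2 kb, -0.047 over 4208 genes of 2 to 4 kb and -0.27 over 3536 genes over 4 kb. When each library's trend with length was removed, Calm2 was at 0.69 ± 0.21 (adjusted p = 0.497) and Calm3 at -0.28 ± 0.31 on the log2 scale. With the trend in GC content removed as well, Calm2 stood at 0.25 ± 0.24 (SE, adjusted p = 0.9999) and Calm3 at 0.058 ± 0.35. After that correction the log2 fold changes of Calm2 and Calm3 lay within their SEs of each other. Runs of 50 bases that also occur in processed pseudogenes cover 32.0% of the Calm2 transcript (3 pseudogenes) and 6.99% of that of Calm3 (1 pseudogene), so both levels are uncertain; the 9 genes share no such run with each other.

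**Figure D2:**
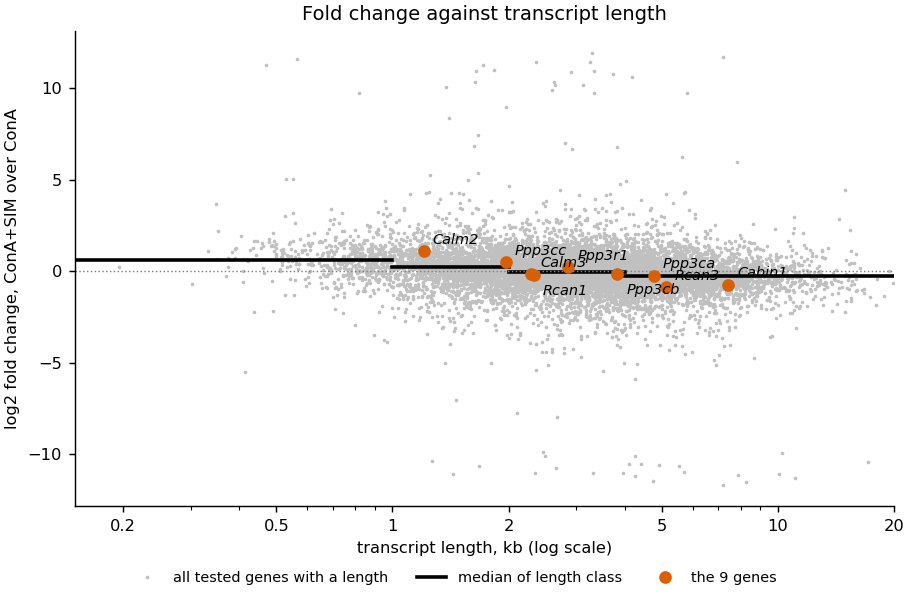
Log2 fold change (ConA+SIM over ConA, vertical axis) of every tested gene with a known transcript length (grey), against that length in kb on a log axis. Black lines are the medians of 4 length classes, from 0.63 under 1 kb to -0.27 over 4 kb, and the 9 genes are in orange, with Calm2 the shortest and highest and Cabin1 the longest.

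The genes whose level followed that of Calm2 most closely over the 6 libraries were Rps24, Ssr4 and Rps29. Rps24 and Rps29 encode ribosomal proteins and Ssr4 a subunit of the translocon-associated complex of the endoplasmic reticulum. Their root mean square distance from Calm2, in mean-centred log2 CPM, was 0.095, 0.11 and 0.11, where the median of all 10508 other tested genes was 1.05. Calm3 lay at 0.83 on that measure. The nearest member was Ppp3cc at 0.58.

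The catalytic subunit, calcineurin A, comes from Ppp3ca (alpha), Ppp3cb (beta) and Ppp3cc (gamma), of which the beta form is the one best known in T cells. Ppp3ca (chromosome 3, 136670124 to 136937727, plus strand) stood at 77.7, 124 and 91.4 CPM in ConA and at 69.2, 70.8 and 108 CPM in ConA+SIM. Ppp3cb (chromosome 14, 20499364 to 20546573, minus strand) stood at 140, 180 and 170 CPM in ConA and at 153, 78.6 and 206 CPM in ConA+SIM. For both genes the ConA+SIM range covered most or all of the ConA range. Ppp3cc (chromosome 14, 70217865 to 70289471, minus strand) stood at 101, 166 and 86.5 CPM in ConA and at 117, 182 and 193 CPM in ConA+SIM. Here 2 ConA+SIM libraries were above all ConA libraries and the third was inside their range.

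None of the 3 catalytic genes passed the edgeR test. On the log2 scale Ppp3ca differed by -0.24 ± 0.36 (SE, 95% interval -1.06 to 0.57), Ppp3cb by -0.16 ± 0.36 (-0.98 to 0.65) and Ppp3cc by 0.48 ± 0.35 (-0.31 to 1.26). These intervals are wide, and a change of any size inside them is compatible with these libraries. Each value also moved with single libraries. Ppp3ca ran from -0.48 without ConA+SIM replicate 3 to -0.050 without ConA replicate 2. Ppp3cb ran from -0.49 without ConA+SIM replicate 3 to 0.14 without ConA+SIM replicate 2, and was -0.65 after the length and GC correction. Ppp3cc ran from 0.32 without ConA replicate 3 to 0.79 without ConA replicate 2.

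Per kb of transcript, Ppp3cc supplied the largest part of the catalytic transcripts in 5 of 6 libraries, and Ppp3cb, by a narrow margin, in ConA replicate 3. Ppp3cc made up 49.2%, 53.6% and 40.9% of the catalytic sum in ConA and 52.2%, 72.3% and 56.2% in ConA+SIM. The share of Ppp3ca was the smallest, at 15.7%, 16.6% and 17.9% in ConA and 12.8%, 11.7% and 13.0% in ConA+SIM. The Ppp3ca shares of the groups did not overlap, whereas those of Ppp3cb and Ppp3cc did. The sum itself overlapped, at 123 ± 29.8 CPM per kb in ConA and 139 ± 31.6 in ConA+SIM (SD, n = 3). These shares rest on 1 annotated transcript per gene, and Ppp3cc was given the shortest of the 3, 1970 nt against 3831 nt for Ppp3cb and 4758 nt for Ppp3ca. Division by length does not remove each library's trend with length, and the shares were not computed after that correction. The log2 fold changes of Ppp3ca and Ppp3cc were -0.12 and 0.28 after length correction. With length and GC correction they were -0.23 and 0.33. In Ppp3cc, 3.05% of exon bases also belong to Gm49417 on the opposite strand.

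**Figure D3:**
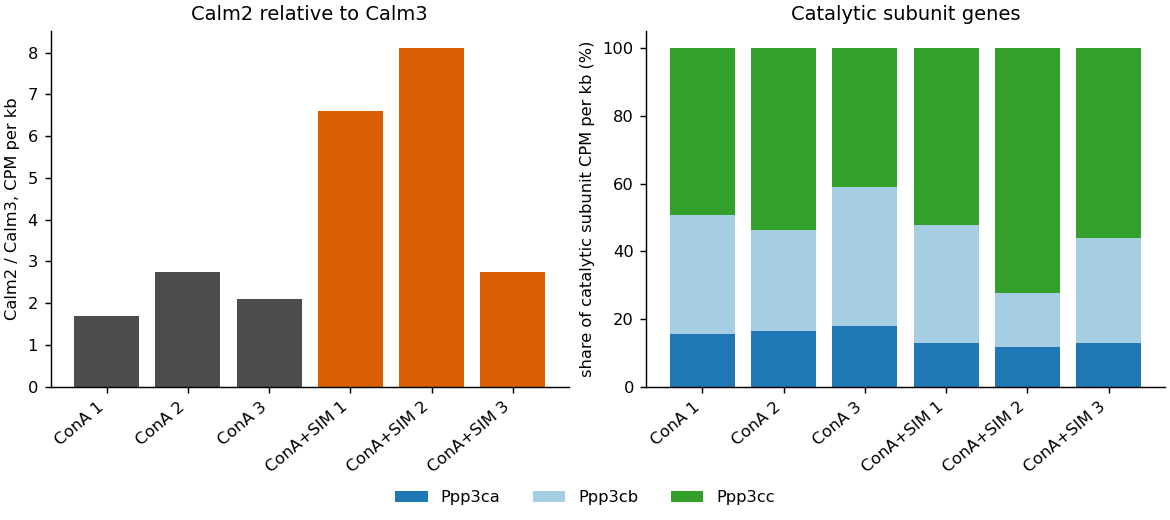
Left, Calm2 level divided by Calm3 level in each library (CPM per kb). Right, share of Ppp3ca, Ppp3cb and Ppp3cc in their summed CPM per kb, in percent. The ratio is 6.61 and 8.11 in ConA+SIM replicates 1 and 2 and at most 2.756 in the others, and the Ppp3ca share is 15.7% to 17.9% in ConA and 11.7% to 13.0% in ConA+SIM.

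The regulatory subunit calcineurin B, itself a calcium-binding protein, is encoded by Ppp3r1 (chromosome 11, 17159263 to 17200375, plus strand) in most tissues. It stood at 131, 58.8 and 198 CPM in ConA and at 123, 198 and 132 CPM in ConA+SIM. The ConA libraries spanned more than the ConA+SIM libraries, and the log2 fold change was 0.23 ± 0.43 (95% interval -0.75 to 1.21). It was -0.13 without ConA replicate 2 and -0.015 without ConA+SIM replicate 2. Per kb, Ppp3r1 was 0.44, 0.13 and 0.64 times the catalytic sum in ConA and 0.38, 0.54 and 0.27 times in ConA+SIM. In Ppp3r1, 14.3% of exon bases also belong to Wdr92 on the same strand, and reads there cannot be told apart.

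Rcan1 and Rcan3 encode regulators of calcineurin that bind the enzyme and at high levels inhibit it. Rcan1 (chromosome 16, 92391953 to 92470867, minus strand) is a classic feedback gene: calcineurin and NFAT switch on its internal start site, which makes a shorter form. The count table has 1 row for the gene, so the forms were measured together. The 250 bases upstream of its starts are shown since they differ in NFAT core motifs (GGAAA), cyclic AMP response elements (TGACGTCA) and AP-1 motifs (TGACTCA). RefSeq, on GRCm38.p6, lists an upstream start (window chr16:92466170-92466419) and an internal start (window chr16:92400079-92400328), 66091 bases apart. Both windows lie within the gene and overlap none of its annotated exons in GENCODE M21. They are written 5′ to 3′ on the gene's strand, with matches to any of the motifs on either strand in capitals.
Rcan1 upstream start: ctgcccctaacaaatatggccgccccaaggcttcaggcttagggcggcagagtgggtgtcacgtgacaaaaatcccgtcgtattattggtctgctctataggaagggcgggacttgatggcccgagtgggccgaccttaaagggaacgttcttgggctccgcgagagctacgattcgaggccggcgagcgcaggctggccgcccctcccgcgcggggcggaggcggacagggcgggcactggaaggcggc
Rcan1 internal start: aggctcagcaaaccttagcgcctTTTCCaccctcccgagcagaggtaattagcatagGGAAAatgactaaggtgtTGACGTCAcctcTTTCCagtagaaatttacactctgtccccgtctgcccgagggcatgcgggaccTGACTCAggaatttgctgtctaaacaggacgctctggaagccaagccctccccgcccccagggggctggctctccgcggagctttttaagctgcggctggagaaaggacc

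The internal window held 3 NFAT core motifs, 1 cyclic AMP response element and 1 AP-1 motif, none overlapping another, and the upstream window held 0 of each. Of 32851 promoter windows of this length in the RefSeq table, 55.6% held at least 1 NFAT core motif and 6.39% held 3 or more, 1.55% held the cyclic AMP response element and 4.46% the AP-1 motif. Among the other members in that table, Ppp3cb had 3 NFAT core motifs, Calm3 and Rcan3 had 1 each and Ppp3r1 and Cabin1 had 0. These are matches of letters and not measured binding.

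Rcan1 varied widely between libraries and showed no shift between groups. It stood at 21.5, 48.6 and 25.6 CPM in ConA and at 18.6, 56.9 and 7.22 CPM in ConA+SIM, a 7.89-fold range over the 6 libraries. ConA+SIM held both the highest and the lowest value. The log2 fold change was -0.21 ± 0.89 (95% interval -2.21 to 1.79), and it ran from -1.30 without ConA+SIM replicate 2 to 0.24 without ConA+SIM replicate 3. In each group, replicate 2 had the highest Rcan1 level. Replicate 2 also had the highest summed level of the 12 sinusoidal endothelial markers in each group, 2404.5 CPM in ConA and 851 in ConA+SIM, where the remaining libraries ran from 418 to 795 CPM. In ConA+SIM, however, replicate 3 was close behind at 776 CPM and had the lowest Rcan1 level of all libraries, 7.22 CPM. None of those markers was at 0 in all libraries, and their part in the Rcan1 level was not tested.

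Rcan3 (chromosome 4, 135412308 to 135433853, minus strand) stood at 37.9, 23.2 and 41.2 CPM in ConA and at 30.8, 0 and 25.2 CPM in ConA+SIM. The groups overlapped apart from ConA+SIM replicate 2, which had 0 counts against 461 to 1047 in the other libraries. A count of 0 there allows up to 3 counts, or 0.175 CPM, for counting error alone. Rcan3 was 1 of 550 genes with 0 counts in that library and at least 100 in each other library, where the other libraries had 18 to 185 such genes. The log2 fold change was -0.87 ± 1.56 with all libraries and -0.28 without ConA+SIM replicate 2.

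Cabin1 (chromosome 10, 75646112 to 75764341, minus strand) encodes a large nuclear protein that binds calcineurin and also represses MEF2 factors. It stood at 140, 65.4 and 64.2 CPM in ConA and at 48.4, 50.9 and 62.6 CPM in ConA+SIM. All ConA+SIM libraries were below all ConA libraries, though the highest of the former and the lowest of the latter were close and ConA replicate 1 was more than 2 times any other library. The log2 fold change was -0.74 ± 0.44 (95% interval -1.72 to 0.24, adjusted p = 0.787), and -0.28 without ConA replicate 1. Its transcript, 7417 nt with 56.6% GC, was the longest of the members. The value was -0.51 after length correction and -0.051 after length and GC correction.

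**Figure D4:**
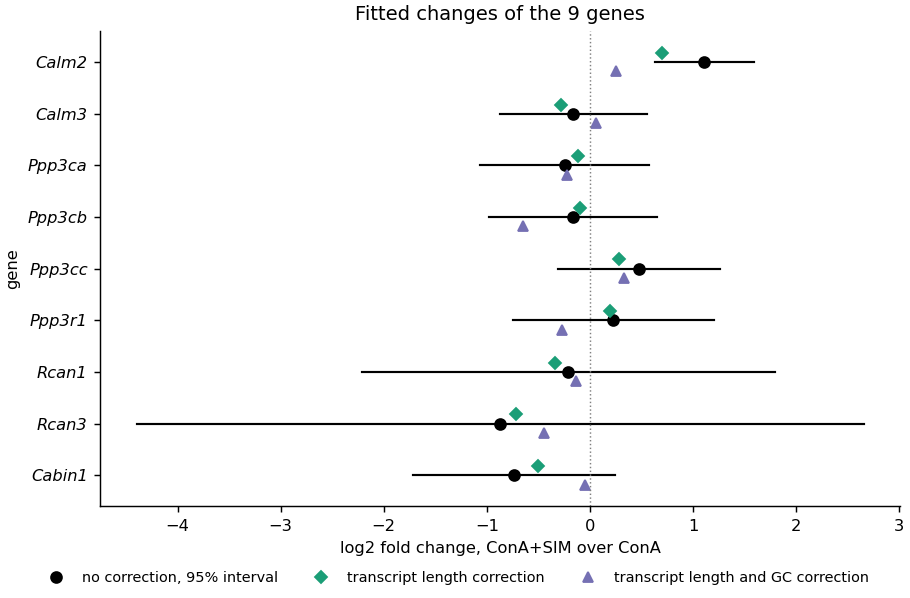
Fitted log2 fold change (ConA+SIM over ConA) of the 9 genes with its 95% interval (black), after removing each library's trend with transcript length (green diamonds) and with length and GC content (purple triangles). The interval of Calm2 alone lies clear of 0, and its value goes from 1.11 to 0.69 and 0.25 with the corrections.

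Ordered by level per kb in ConA, the members ran from Calm2 (269 ± 24.6 CPM per kb, SD, n = 3) and Calm3 (127 ± 27.0) through Ppp3cc (59.8 ± 21.6), Ppp3r1 (45.1 ± 24.3), Ppp3cb (42.6 ± 5.39) and Ppp3ca (20.6 ± 5.02) to Rcan1 (13.7 ± 6.30), Cabin1 (12.1 ± 5.87) and Rcan3 (6.67 ± 1.87). In ConA+SIM the order of the means was the same, from Calm2 at 579 ± 117 to Rcan3 at 3.65 ± 3.21. Calm2 and Calm3 were thus the most abundant of the 9 and the inhibitors the least. The neighbours Ppp3cc and Ppp3r1, Ppp3r1 and Ppp3cb, and Rcan1 and Cabin1 did not differ beyond their spread in ConA. The 3 genes whose level followed Ppp3ca most closely were Polr3b, a subunit of RNA polymerase III, Fis1, a mitochondrial fission factor, and Retreg3, a reticulophagy regulator, at distances of 0.10, 0.11 and 0.12 against a median of 0.89. Ppp3cb lay at 0.32 from Ppp3ca.

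Around these genes, 66 others of the pathway were listed in 6 groups and 50 had enough counts to be tested. Of these, 1 rose, 0 fell and 49 did not pass. The gene that rose was Ppia, which encodes cyclophilin A, the receptor through which ciclosporin inhibits calcineurin. Ppia stood at 685, 697 and 774 CPM in ConA and at 1550.2, 1292.8 and 1729.8 CPM in ConA+SIM. Its log2 fold change was 1.09 ± 0.17 (adjusted p = 0.0343). Every ConA+SIM library was far above every ConA library. The call ended when any 1 library was left out (adjusted p from 0.0898 to 0.244), when ribosomal protein genes were left out (adjusted p = 0.129) and after length correction (0.76, adjusted p = 0.2999). Ppia has many processed pseudogenes, so its level is uncertain. Fkbp1a, which encodes the tacrolimus receptor FKBP12, stood at 186 ± 24.7 and 227 ± 97.4 CPM and did not pass.

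Among the listed relatives of the members, Ppp3r2, Rcan2, Calml3, Chp2 and Akap5 had 0 counts in every library. A count of 0 allows up to 0.118 to 0.175 CPM for counting error alone. Counts of 0 also occurred here for genes well counted in the other libraries, such as Rcan3.

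Lower values in ConA+SIM were more common than higher ones upstream and downstream of calcineurin, 35 against 15 of the 50 tested genes, with a median of -0.40. That median was -0.29 after length correction and -0.086 after length and GC correction, when 30 were lower and 20 higher. Over all 10509 tested genes, 5462 were lower and 5047 higher, with a median of -0.041. After length and GC correction 5572 of all tested genes were lower and 4937 higher, with a median of -0.051. In 8 of the 50 pathway genes all ConA+SIM libraries lay below ConA (8.57% of tested genes). In 3 all lay above (9.18%). NFAT factors had lower values in 4 of 4 tested genes. Nfatc3 stood at 358, 447 and 419 CPM in ConA and at 258, 320 and 267 CPM in ConA+SIM, groups that did not overlap (-0.54 ± 0.21 on the log2 scale, adjusted p = 0.472). Nfatc1, at -0.77 ± 0.33, Nfat5, at -0.87 ± 0.47, and Nfatc2, at -0.76 ± 1.46 with 0 counts in ConA+SIM replicate 2, did not pass either. After length and GC correction Nfatc3 was at -0.39, Nfatc1 at -0.32, Nfat5 at -0.70 and Nfatc2 at -0.059.

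The list of NFAT kinases, which return NFAT to the cytoplasm, and scaffolds had lower values in 6 of 8 tested genes and 0 passed. The casein kinase 1 genes Csnk1a1 (-0.36 ± 0.20), Csnk1d (-0.59 ± 0.29) and Csnk1e (-0.98 ± 0.52) each had all ConA+SIM libraries below ConA. So did 4 of the 8 tested genes in all, beside 8.57% of all tested genes. After length and GC correction these genes were at -0.56, -0.25 and -0.66, and 5 of the 8 in the list were lower. Calmodulin-dependent kinases had lower values in 6 of 6 tested genes (5 after length correction, 4 after length and GC correction) and 0 passed. Camk4, the form typical of T cells, stood at 194, 190 and 183 CPM in ConA and at 165, 157 and 157 CPM in ConA+SIM. The groups did not overlap, but the difference was small (-0.25 ± 0.23, adjusted p = 0.997, edgeR). Camk4 was the 1 separated gene of the 6. Camk1d had a log2 fold change of -0.61 ± 0.53 and Camk2g one of -0.67 ± 0.83. The Camk2g value ran from -1.81 without ConA+SIM replicate 1 to -0.14 without ConA+SIM replicate 2.

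Of 15 genes for calcium entry, release and pumping, 11 had lower and 4 higher values and 0 passed. Plcg1, which makes the second messenger that opens calcium stores, was at -0.62 ± 0.29, the store channel gene Itpr3 at -0.88 ± 0.43 and the calcium pump gene Atp2a3 at -2.06 ± 1.06. Itpr3 ran from -1.17 without ConA replicate 3 to -0.45 without ConA replicate 2, and Atp2a3 from -4.14 without ConA+SIM replicate 2 to -1.59 without ConA+SIM replicate 3. After length and GC correction Plcg1 was at -0.12 and Itpr3 at -0.12, and 10 of the 15 genes were lower. Other effectors of calcineurin and calmodulin had lower values in 8 of 13 tested genes (6 after length and GC correction), and 0 passed. Iqgap1, a calmodulin-binding scaffold, stood at 719, 767 and 663 CPM in ConA and at 442, 362 and 438 CPM in ConA+SIM (-0.79 ± 0.18, adjusted p = 0.154), and DESeq2 called it lower (adjusted p = 1.12e-04). The Iqgap1 value was -0.55 after length correction (adjusted p = 0.503, edgeR) and -0.34 after length and GC correction (adjusted p = 0.9999, edgeR). Hdac7, at -0.72 ± 0.31, and Mef2d, at -0.49 ± 0.30, did not pass, and after length and GC correction they were at -0.21 and 0.039.

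**Figure D5:**
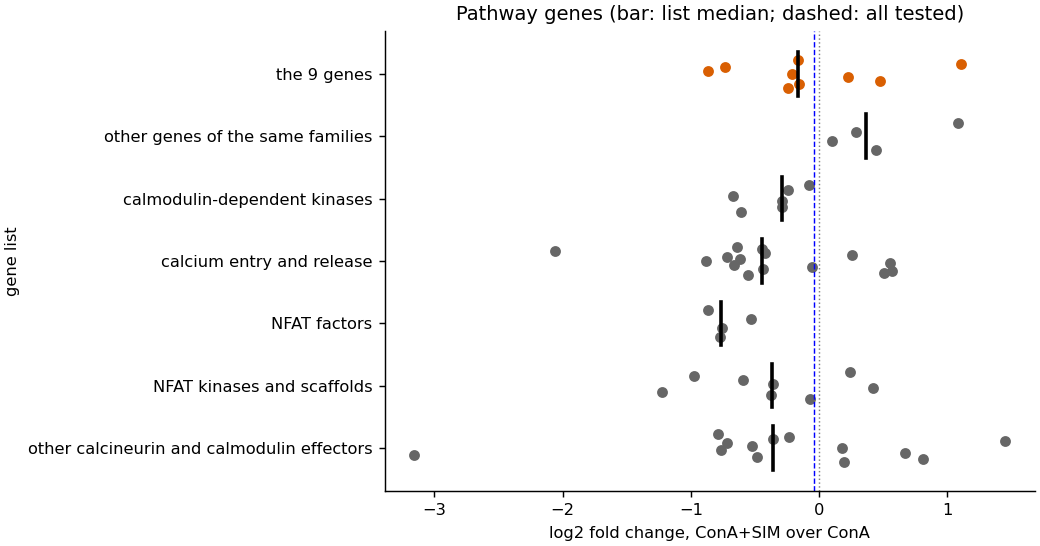
Log2 fold changes (ConA+SIM over ConA) of the 9 genes (orange) and of the tested genes of 6 pathway lists (grey). Black bars are list medians and the dashed line is the median of all tested genes, -0.041. The list medians run from -0.77 for NFAT factors to 0.37 for other genes of the same families.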

How the data were processed

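For 6 libraries the authors deposited raw, unnormalized counts in 1 table. HISAT2 2.1.0 and GRCm38 are named in the submitters' processing notes. The sources used here do not give the counting tool, annotation release, strand setting, read length or the handling of reads with several matches. Columns were matched to samples by title and 0 were left unused. Separate animals per sample are not stated in the labels, so the spread behind each p-value may be technical.

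Genes were kept with filterByExpr of edgeR 4.0.16, scaled with TMM and tested with its robust quasi-likelihood F test in R 4.3.3, without covariates, with Benjamini-Hochberg adjustment over all 10509 tested genes and a threshold of 0.05. Group separation was judged on CPM. Transcript length and GC content are those of 1 GENCODE M21 transcript per gene (98.4% of tested genes had one). Protein-coding transcripts were preferred, then those of the basic set, then the longest. Length and GC trends were robust splines with 4 degrees of freedom, fitted on genes with at least 10 counts in each library and centred at 0. Alternatives were RLE scaling, no filter, 5 CPM in 3 libraries, DESeq2 1.42.0, limma 3.58.1 voom with and without quality weights, a replicate block, each library left out, ribosomal protein genes left out and the trend corrections. The procedure was tested on simulated data.

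Named genes are all members, up to 3 genes of smallest p per pathway list with any called, Nfatc2, Nfatc3 and the 3 nearest genes to Calm2 and Ppp3ca; 1 gene so named is not reported here. Relatives at 0 counts, Calm4, Klrb1c and the markers named singly, such as Cd4, Cd8a and Gzma, were chosen after their values were seen. The members, lists and tests were chosen with earlier results of these data known.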

Additional observations from a re-analysis of the deposited data

How the results depend on the processing

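Over 16 alternatives, 133 of 144 member values kept their direction and side of the threshold, 9 changed sign and 2 passed. The members called numbered 1 (Calm2) with DESeq2 and with limma-voom and 0 otherwise. With 1 library left out, the log2 fold change of Ppp3cb ran from -0.49 to 0.14 (positive without ConA+SIM replicate 2), that of Ppp3r1 from -0.13 to 0.70 (negative without ConA or ConA+SIM replicate 2), that of Rcan1 from -1.30 to 0.24 (positive without ConA replicate 2 or ConA+SIM replicate 1 or 3) and that of Calm3 from -0.52 to 0.060 (positive without ConA+SIM replicate 2). With length and GC correction Ppp3r1 was at -0.27, Calm3 at 0.058 and Ppp3cb, without a change of sign, at -0.65. Each value that changed sign had an adjusted p of 0.9994 to 1. Calm2 ran from 0.25 to 1.26 and stayed positive in all 16, with an adjusted p from 0.0899 to 0.374 when 1 library was left out.

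The count of all genes called, 57, became 555 with DESeq2 (356 higher, 199 lower), 115 with limma-voom, 114 with quality weights, 0 to 3 with 1 library left out, and 0 with length correction, with length and GC correction, and without ribosomal protein genes. The 1 pathway call, Ppia, became 3 with DESeq2 and 0 with any 1 library left out, length correction, length and GC correction or without ribosomal protein genes. Among named pathway genes, Fkbp1a ran from -0.11 (without ConA+SIM replicate 2) to 0.49 with 1 library left out, and Mef2d changed sign to 0.039 with length and GC correction. With the replicate block 0 genes, 0 members and 0 pathway genes were called. The labels do not say whether replicate numbers pair the samples. Same-numbered libraries correlated at 0.0088 to 0.033 in their deviations from group means, and not every library correlated best with its own number. With 3 libraries a group such correlations cannot settle whether samples were paired. The cause of these changes was not tested. With 3 libraries a group, the 95% intervals of members other than Calm2 all held 0, and for Rcan1 and Rcan3 they spanned several log2 units.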

Other observations

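Calm4, a calmodulin-like gene, had 106 counts (5.67 CPM) in ConA+SIM replicate 3 and 0 counts in the other 5 libraries, and was not tested. Genes with 0 counts in 1 library and at least 100 in each other library numbered 157, 185 and 31 in the ConA libraries and 52, 550 and 18 in those of ConA+SIM; Rcan3 was the 1 member among them.

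Klrb1c, which encodes the NK1.1 antigen that the sort selected against, stood at 6.69, 17.6 and 19.98 CPM in ConA and at 43.5, 43.5 and 39.0 CPM in ConA+SIM (adjusted p = 0.672). Groups did not overlap in that gene (9.18% of tested genes had all ConA+SIM libraries above ConA), and its part in the level of Calm2 was not tested.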
